A study of Mus musculus with 6 samples.

Results

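The genes described here encode the enzymes that cut and cross-link the extracellular matrix of the heart and the inhibitors that hold the cutters in check. They were the genes whose annotated symbol begins with Mmp or Timp and a digit or with Adamts, together with Lox and Loxl1 to Loxl4, and each was read through its brightest probe set, by the mean of the 6 arrays. This gave 53 member genes of 19938 genes with a probe set carrying exactly 1 symbol: 22 matrix metalloproteinases (MMPs), 4 tissue inhibitors of metalloproteinases (TIMPs), 18 ADAMTS proteases, 5 ADAMTS-like proteins and 4 lysyl oxidases. For 48 of them the array held 1 such probe set, and 5 genes had several, with 79 member probe sets in all. Mmp15, Adamts2 and Loxl2 were not analysed here. All Adamts3 probe sets, 16 in number, are reported.

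RNA of whole hearts from mice aged 8 weeks was read on Affymetrix Gene 1.0 ST arrays, 1 heart to an array, with 3 hearts of each genotype. Ppif-/- mice are global knockouts of Ppif, which encodes the mitochondrial cyclophilin D, and had been backcrossed to C57BL/6 from Sv129; WT mice were C57BL/6. The labels name no treatment, and the stated purpose was to look for expression changes that come ahead of heart muscle dysfunction. The titles number the hearts as separate samples, but litter, sex and hour of collection are not stated, so the tests measure the spread between these 6 hearts.

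MMPs and ADAMTS proteases are secreted or membrane-bound zinc enzymes. Most are made as inactive precursors that furin-like convertases or other proteases cut to activate. MMPs degrade collagens, gelatins, elastin and many other proteins, whereas ADAMTS proteases trim procollagens and cleave large proteoglycans such as versican and aggrecan. TIMPs bind the active sites of these enzymes, and lysyl oxidases oxidise lysines in collagen and elastin so that the fibres cross-link. In the heart, fibroblasts, endothelial cells, smooth muscle cells, cardiomyocytes and leukocytes all contribute members of these families. In bulk RNA of a whole heart, fewer cells of a type and less RNA per cell cannot be told apart.

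Values are log2 RMA expression, and every difference below is Ppif-/- minus WT on that scale with the standard error (SE) of a limma fit over 23410 probe sets. A gene is said to have risen or fallen only where its p-value, adjusted over all those probe sets, was below 0.05. Ppif checked the labels: its values were 6.00, 6.25 and 6.44 in Ppif-/- hearts and 11.44, 11.28 and 11.49 in WT hearts. Markers of cardiomyocytes checked the tissue: the mean log2 level over 10 of them was 13.31 to 13.33 in Ppif-/- hearts and 13.25 to 13.27 in WT hearts. In limma 0 of the 10 rose or fell. At an unadjusted p under 0.05 there was 1 higher, Nppa (0.68), and 1 lower, Ryr2 (-0.19), both with separate groups. Array medians ran from 6.03 to 6.11. WT heart 2 gave the highest WT value for 24 of 53 members, against 16 for WT heart 1 and 13 for WT heart 3. It did so for 5 of the 6 members whose difference was -0.25 or lower, a choice that itself favours a high WT heart. How often WT heart 2 was the highest over all probe sets was not counted. When it was left out, 10 of the 28 members with a difference of at least 0.1 in size moved by over 1.5 times or turned sign, and over all 53 members the sign turned for 10, the largest of these being Mmp19 at -0.10 with every heart included.

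Across the members, 2 genes rose in Ppif-/- hearts and 0 fell by the limma test, and both were ADAMTS proteases: Adamts1 and Adamts3. The 2 called members of 53 were 3.77%, against 1.14% of all 19938 genes read by 1 probe set each. Of all tested probe sets, 1.09% were called in either direction and 0.624% called higher. As the members were chosen with earlier results of these data known, these shares are a description only. At an unadjusted limma p under 0.05 there were 9 members, 4 higher and 5 lower, or 17.0% against 12.9% of all probe sets. The 3 hearts of one genotype lay wholly on one side of the other 3 for 11 members, 5 higher and 6 lower, or 20.8% against 19.8% of all probe sets. The median difference over the members was -0.0047, beside -0.0023 over all tested probe sets. Outside the 2 called genes, the differences of the other 51 members ran from -0.65 to 0.31. The calls depended on single hearts: the count of called members was 0 without Ppif-/- heart 2 or 3, 1 (Adamts1) without Ppif-/- heart 1 and likewise without either of WT hearts 2 and 3, and 2 (Adamts3 and Mmp28) without WT heart 1. The plot of member differences shows the family's spread around 0 and marks the 2 called genes. By size only Adamts1 stood out, since Adamts3 at 0.65 and Adamts15 at -0.65 lay about equally far from 0.

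**Figure D1:**
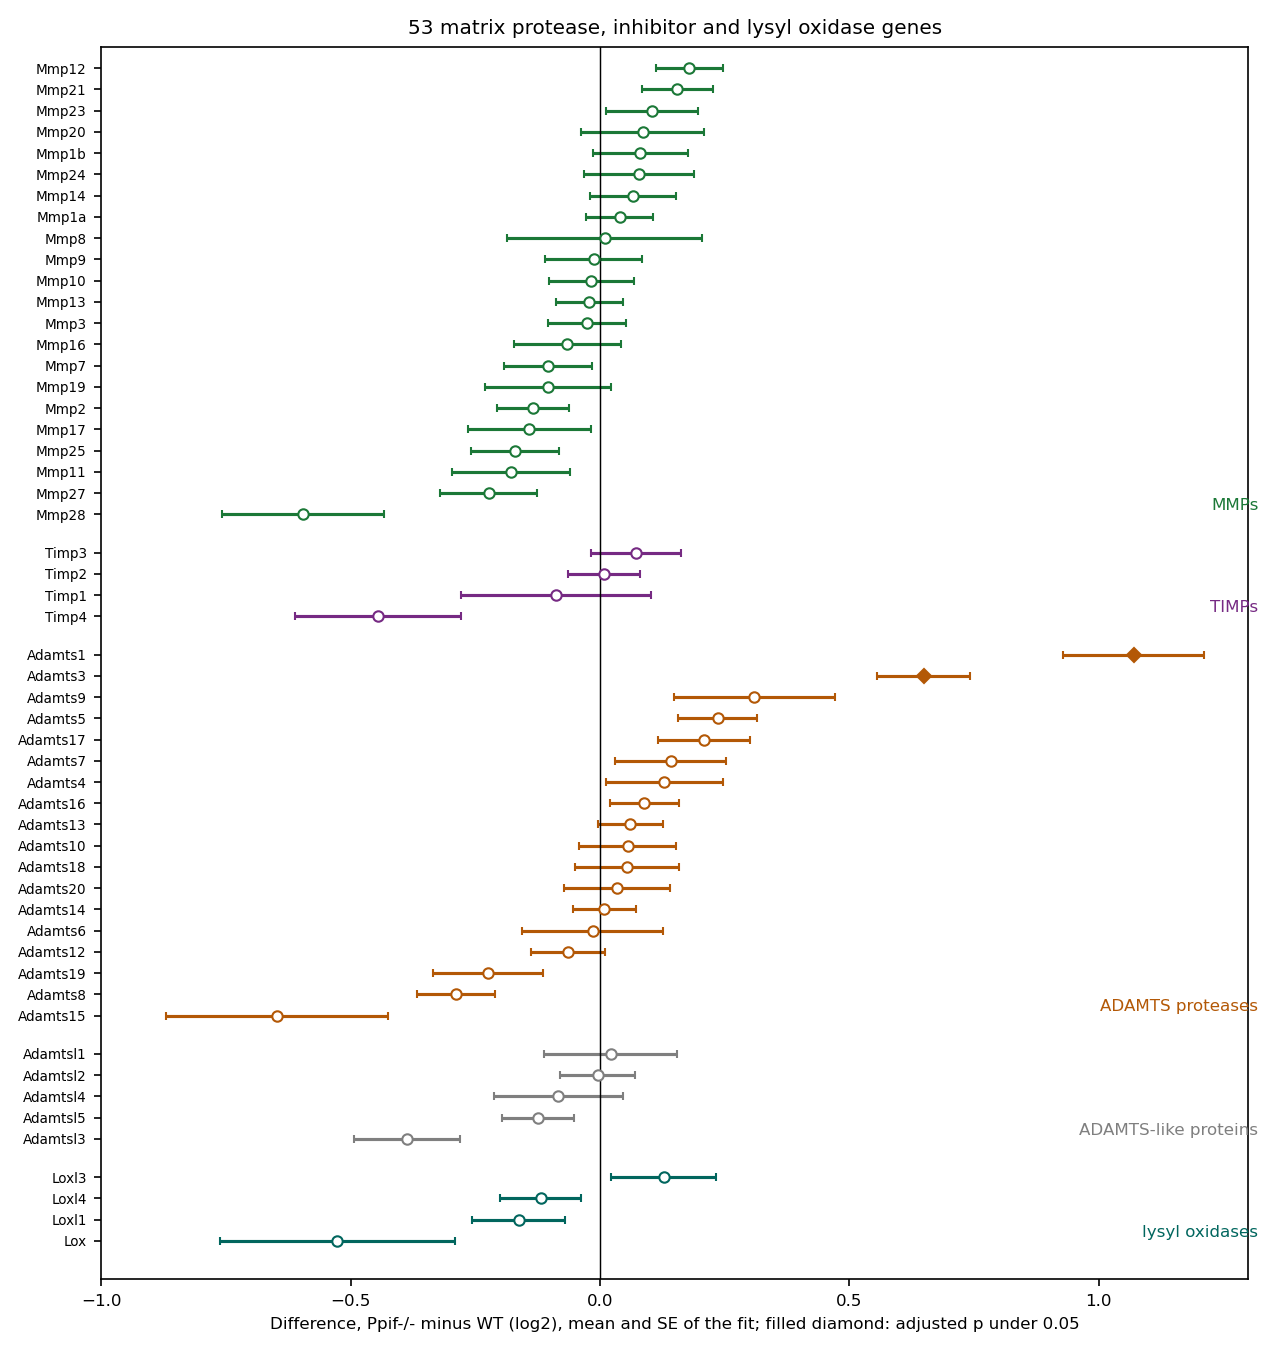
Difference in log2 expression between 3 Ppif-/- and 3 WT hearts (horizontal axis) for each of the 53 member genes, grouped by family and ordered by size; points are the fitted differences, bars the SE of the fit, and filled diamonds mark an adjusted p under 0.05. Adamts1 at 1.07 and Adamts3 at 0.65 are the filled points, and Adamts15 at -0.65 and Mmp28 at -0.60 lie farthest to the left.

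Adamts3 encodes a procollagen N-proteinase, which removes the amino-terminal propeptide of procollagen, and which with its cofactor CCBE1 also activates the lymphatic growth factor VEGF-C. Its probe set with the highest mean (10531177) read 8.16, 8.21 and 8.24 in Ppif-/- hearts and 7.73, 7.54 and 7.39 in WT hearts. All 3 knockout hearts lay above all 3 WT hearts, a difference of 0.65 ± 0.09 or 1.57-fold (limma adjusted p = 0.0208). The promoter windows of Adamts3 and Adamts1 are shown because these were the 2 members that rose together. Each holds the 250 bases ahead of the annotated transcription start from RefSeq (GRCm38.p6), on the minus strand, at chr5:89883335-89883584 for Adamts3 and chr16:85803114-85803363 for Adamts1. Capitals mark TGACG, the shared core of cyclic AMP response elements, and TATAAA, the TATA motif.
Adamts3: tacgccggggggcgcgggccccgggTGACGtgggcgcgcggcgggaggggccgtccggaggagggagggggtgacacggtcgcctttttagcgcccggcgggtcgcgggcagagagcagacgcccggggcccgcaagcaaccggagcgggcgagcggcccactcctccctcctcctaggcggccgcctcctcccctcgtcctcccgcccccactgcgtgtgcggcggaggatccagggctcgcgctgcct
Adamts1: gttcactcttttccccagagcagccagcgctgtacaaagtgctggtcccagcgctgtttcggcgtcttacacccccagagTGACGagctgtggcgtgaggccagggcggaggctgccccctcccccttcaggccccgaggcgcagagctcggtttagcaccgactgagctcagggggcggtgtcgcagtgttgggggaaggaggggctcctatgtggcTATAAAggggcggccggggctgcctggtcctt

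Both windows carried TGACG, starting 225 bases ahead of the start in Adamts3 and 170 bases ahead in Adamts1, as did 17.8% of all 32851 promoter windows of that length. Only the Adamts1 window held TATAAA, 32 bases ahead of its start, a motif found in 12.4% of windows. A GC box (GGGCGG, on either strand) occurred at 1 place in the Adamts3 window and at 3 in that of Adamts1, and in 32.7% of all windows. On either strand, neither window held the full response element TGACGTCA, which contains TGACG (1.55% of windows), the EGR site GCGNGGGCG (4.7%) or the E-box CACGTG (6.02%). Likewise the D-box TTANGTAA (2.06%), the AP-1 site TGANTCA (6.75%), CCAAT (33.8%) and the CArG box (1.47%) were absent from these letters. A match describes the letters and not a bound site.

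The 16 Adamts3 probe sets gave the same direction throughout. Every one read higher on average in Ppif-/- hearts, with differences from 0.21 to 0.87 and a median of 0.42. Of these, 5 passed the limma threshold (31.2%, against 1.09% of all tested probe sets). An unadjusted p under 0.05 was reached by 14 (87.5%, against 12.9%), and in 13 the genotypes did not overlap (81.2%, against 19.8%). The 16 probe sets all read transcripts of 1 gene on the same 6 arrays, so they are not independent observations. Averaged over the 16 probe sets, the hearts stood at 7.01, 7.10 and 7.05 in Ppif-/- mice and 6.67, 6.61 and 6.58 in WT mice, a gap of 0.43 (1.35-fold), while the SD between hearts was 0.05 in each genotype.

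The steepest of them was probe set 10531187. It read 8.00, 8.02 and 8.04 in Ppif-/- hearts and 7.29, 6.97 and 7.18 in WT hearts, a 1.82-fold difference (0.87 ± 0.09, limma adjusted p = 0.00493). Probe set 10531173 was next by p, with 6.78, 6.78 and 6.76 against 6.27, 6.15 and 6.14 (0.58 ± 0.07, limma adjusted p = 0.00743). In both, the knockout hearts nearly coincided, and the gap between genotypes was wider than the spread of the WT hearts. Probe sets 10531191 (0.50 ± 0.08, limma adjusted p = 0.0309) and 10531197 (0.42 ± 0.07, 0.0413) completed the 5 that passed. Without 1 heart, 10531191 kept its call only when that heart was Ppif-/- heart 1 (0.0343, against 0.0852 to 0.127 for the others), and 10531197 lost it for each of the 6 (0.0939 to 0.154).

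The 11 Adamts3 probe sets that did not pass differed by 0.21 to 0.57. Nearest to the threshold was 10531195, at 6.19, 6.44 and 6.29 against 5.69, 5.93 and 5.60 (0.57 ± 0.11, limma adjusted p = 0.0582), which passed without WT heart 2 (0.66, 0.0415). The genotypes overlapped in 3 of the 11, which were 10531185, 10531203 and 10531175. The last of these had the widest spread, with 6.49, 5.79 and 6.12 in Ppif-/- hearts against 5.86, 6.02 and 5.72 in WT hearts. It was also the 1 probe set annotated to 1 RefSeq transcript of Adamts3 instead of 2. Among the other 9, 10531166 (0.43 ± 0.09), 10531183 (0.47 ± 0.12), 10531189 (0.41 ± 0.11) and 10531193 (0.39 ± 0.10) had the larger differences, and 10531179, 10531181, 10531201, 10531185 and 10531203 lay between 0.21 and 0.36. Which exons each probe set reads was not given. Leaving out any 1 heart left 2 or 3 of the 16 called, among them 10531187 and 10531173 each time. The call of 10531177 was lost without Ppif-/- heart 1, 2 or 3 (limma adjusted p = 0.0551, 0.0851 and 0.1001) and without WT heart 2 or 3 (0.073 and 0.0583).

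**Figure D2:**
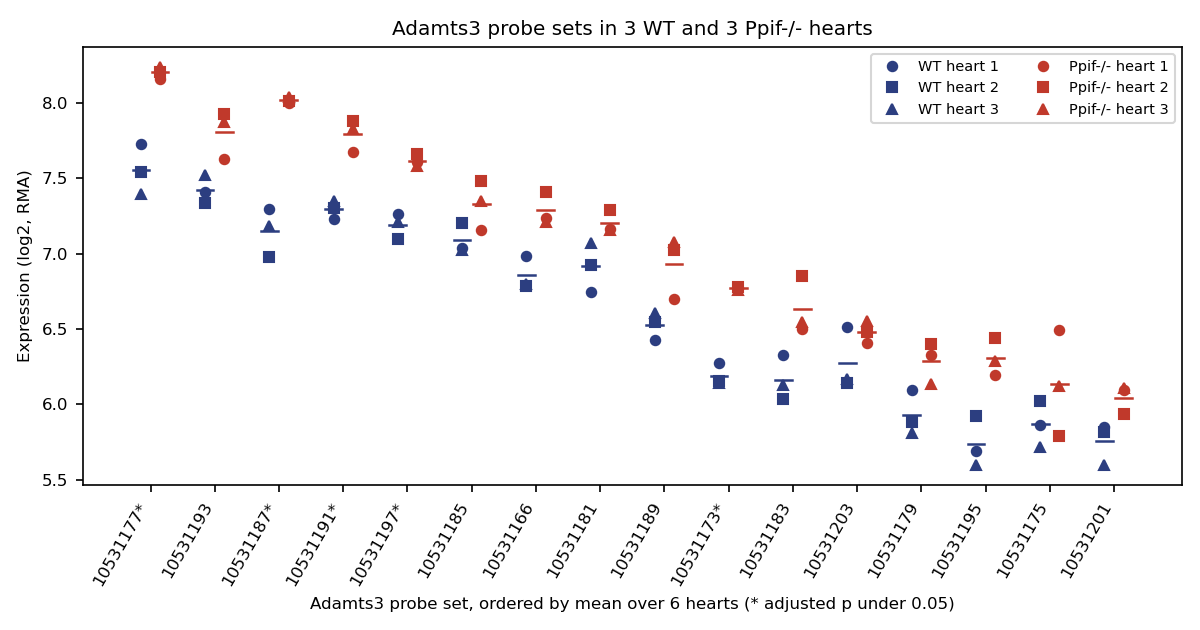
Log2 expression (vertical axis) of the 16 Adamts3 probe sets, ordered by their mean over all hearts; each symbol is 1 heart, short lines are group means, and an asterisk marks an adjusted p under 0.05. The Ppif-/- mean lies above the WT mean at every probe set, and the 3 Ppif-/- hearts almost coincide at 10531187 and 10531173.

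Adamts1, the other member that rose, encodes a protease of versican and aggrecan and is also known to restrain blood vessel growth. It read 9.84, 9.80 and 10.002 in Ppif-/- hearts and 8.75, 8.55 and 9.12 in WT hearts, on its 1 probe set. Every knockout heart lay above every WT heart, and the WT hearts spread more widely than the knockout hearts. The difference of 1.07 ± 0.14 was 2.10-fold (limma adjusted p = 0.0141). The call was lost without Ppif-/- heart 2, Ppif-/- heart 3 or WT heart 1 (limma adjusted p = 0.0525, 0.078 and 0.0648), where the difference was 1.11, 1.01 and 1.04.

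Among the other ADAMTS proteases, 0 of 16 passed in limma, while 3 reached an unadjusted p under 0.05. Adamts5, an aggrecanase and versicanase whose gene lies next to Adamts1 on chromosome 16, read 8.93, 8.77 and 8.70 in Ppif-/- hearts and 8.59, 8.58 and 8.51 in WT hearts. The genotypes did not overlap, but the difference of 0.24 ± 0.08 did not pass (limma adjusted p = 0.259). Adamts9, a further versican-cleaving protease, had 6 probe sets and was described over all of them after its values were seen. They differed by 0.31 to 0.55, with 5 of 6 free of overlap between genotypes (against 19.8% of all tested probe sets). In limma 0 of 6 passed, while 5 reached an unadjusted p under 0.05 (against 12.9%). These 6 read 1 gene on the same 6 arrays, so they are not independent observations. The brightest, 10546430, which stands for the gene in the counts, was the 1 that overlapped (0.31 ± 0.16), and its difference was 0.14 without WT heart 2. The widest gap was that of 10546450, at 9.09, 9.04 and 9.41 against 8.76, 8.29 and 8.84 (0.55 ± 0.16, limma adjusted p = 0.189). The mean over the 6 was 8.70, 8.71 and 8.94 in Ppif-/- hearts and 8.48, 8.10 and 8.53 in WT hearts. Here WT heart 2 was the lowest of all, and without it the 6 differences ran from 0.14 to 0.38. The 5 probe sets of Adamts17, a protease linked to fibrillin microfibrils, differed by 0.04 to 0.21 and 0 passed in limma (0 at an unadjusted p under 0.05).

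A pair of neighbouring genes on chromosome 9, Adamts8 and Adamts15, lay on the other side. ADAMTS15 and ADAMTS8 also cleave proteoglycans. Adamts15 read 6.36, 6.56 and 6.39 in Ppif-/- hearts and 6.71, 7.66 and 6.88 in WT hearts. Its difference of -0.65 ± 0.22 rested in large part on WT heart 2 and came to -0.36 without it (limma adjusted p = 0.27 with that heart and 0.221 without). Adamts8 read 5.49, 5.48 and 5.54 against 5.83, 5.88 and 5.66, a difference of -0.29 ± 0.08 (limma adjusted p = 0.163). In each gene the knockout hearts were all below the WT hearts, yet neither passed. The remaining 11 ADAMTS proteases, which include the aggrecanase Adamts4 (0.13, and 0.04 without WT heart 2), Adamts7 (0.14) and the von Willebrand factor cleaving protease Adamts13 (0.06), differed by between -0.22 and 0.14.

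ADAMTS-like proteins share the ancillary domains of the ADAMTS family but lack the protease domain, and several bind fibrillin. Of the 5, 0 passed in limma, while 1 reached an unadjusted p under 0.05. This was Adamtsl3, with 5.94, 5.60 and 5.77 in Ppif-/- hearts and 6.28, 6.16 and 6.03 in WT hearts (-0.39 ± 0.11, limma adjusted p = 0.168). The groups did not overlap. Adamtsl2, known to act in the fibrillin and TGF beta system, differed by -0.0047 and Adamtsl4, a fibrillin-binding protein, by -0.08. Without WT heart 2 both turned sign, to 0.05 and 0.03.

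MMP transcripts did not pass in either direction. Of 22, 0 were called by limma, 2 had an unadjusted p under 0.05, and the median difference was -0.02. Mmp28, epilysin, had the largest difference, with 5.96, 5.82 and 6.12 in Ppif-/- hearts and 6.18, 6.81 and 6.70 in WT hearts. The highest knockout heart was just under the lowest WT heart, and the difference of -0.60 ± 0.16 did not pass (limma adjusted p = 0.167). Without WT heart 1 it did pass (-0.78, 0.0387), and without WT heart 2 it was -0.47 (0.343). Mmp12, the elastase of macrophages, read 5.87, 5.94 and 5.89 against 5.72, 5.66 and 5.79. That small gap of 0.18 ± 0.07 was free of overlap and did not pass (limma adjusted p = 0.317).

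Mmp2, gelatinase A, was at 9.33, 9.35 and 9.31 in Ppif-/- hearts and 9.36, 9.53 and 9.51 in WT hearts. The groups were separate by a narrow margin (-0.13 ± 0.07, limma adjusted p = 0.483). Mmp21, a dim probe set whose enzyme is known from early left-right patterning, was separate in the other direction, with 4.91, 4.86 and 4.81 against 4.66, 4.66 and 4.79 (0.16 ± 0.07, limma adjusted p = 0.411). Mmp25, a membrane-anchored MMP of leukocytes, read 5.44, 5.35 and 5.50 against 5.44, 5.68 and 5.68, so the groups overlapped through WT heart 1 (-0.17 ± 0.09). Mmp11, stromelysin 3, read 6.85, 7.21 and 6.88 against 7.05, 7.32 and 7.10, with overlap (-0.18 ± 0.12, and -0.09 without WT heart 2). Mmp16, Mmp17, Mmp19, Mmp23 and Mmp24 all overlapped, with differences between -0.14 and 0.10. The membrane-bound activator of MMP2, Mmp14, differed by 0.07 ± 0.09, with overlapping hearts, and Mmp9, gelatinase B, by -0.01 ± 0.10. Collagenases (Mmp1a, Mmp1b, Mmp8 and Mmp13), stromelysins (Mmp3 and Mmp10) and Mmp7, Mmp12, Mmp20 and Mmp27 form a cluster of 10 genes on chromosome 9. Their mean levels ran from 3.21 to 5.81, and 0 of 10 passed in limma, with Mmp12 alone at an unadjusted p under 0.05. No detection calls were given, so whether the heart expresses these genes cannot be read from such levels, and arrays compress the differences of dim transcripts. Their promoter windows share a motif: TGANTCA, the AP-1 letters, occurred in 8 of the 12 windows of the cluster, 1 in each of 8 genes (all but Mmp8 and Mmp27), against 6.75% of all windows. In Mmp3 the match TGAGTCA began 46 bases ahead of the start and in Mmp10 63 bases ahead.

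Of the 4 TIMPs, 0 passed in limma, while 1 reached an unadjusted p under 0.05. Timp4, the inhibitor best known for its abundance in the heart, read 9.07, 8.85 and 9.26 in Ppif-/- hearts and 9.26, 9.86 and 9.40 in WT hearts. The top knockout heart and the bottom WT heart met at the same level, and the difference of -0.45 ± 0.17 (limma adjusted p = 0.313) shrank to -0.27 without WT heart 2 (0.495). Timp1, an inhibitor induced by injury and cytokines, was at 5.99, 5.91 and 6.12 against 5.75, 6.57 and 5.97, so WT heart 2 was again the highest. Its difference of -0.09 ± 0.19 turned to 0.15 without that heart, so its direction rested on 1 heart. Timp2, which also helps MMP14 to activate MMP2, differed by 0.0083 ± 0.07, and Timp3, which binds to the matrix itself and inhibits ADAMTS proteases, by 0.07 ± 0.09. Hearts of the genotypes overlapped in all 4.

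Lysyl oxidases did not pass either, 0 of 4 in limma and 0 at an unadjusted p under 0.05. Lox read 6.02, 5.81 and 5.68 in Ppif-/- hearts and 6.10, 6.97 and 6.02 in WT hearts. The highest knockout heart and the lowest WT heart nearly touched, while WT heart 2 was far above the rest. The difference of -0.53 ± 0.24 (limma adjusted p = 0.405) was -0.22 without WT heart 2 (0.507). Loxl1, required for elastic fibre renewal, was at 7.97, 8.13 and 7.99 against 8.12, 8.37 and 8.09, where WT heart 2 was once more the highest (-0.16 ± 0.09, and -0.08 without it). Loxl3 differed by 0.13 ± 0.11 and Loxl4 by -0.12 ± 0.08, both with overlapping hearts.

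**Figure D3:**
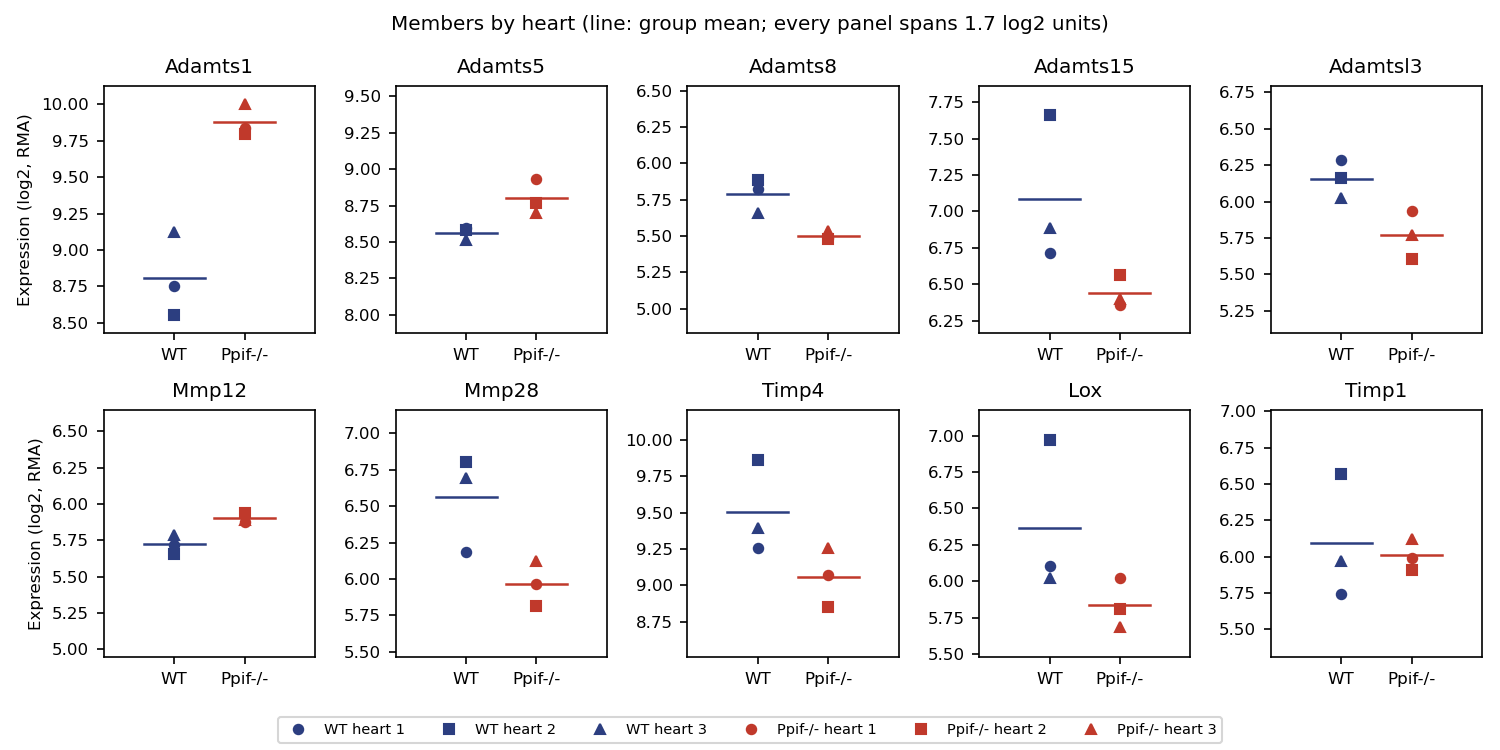
Log2 expression (vertical axis, the same span in every panel) by heart for the members with an unadjusted p under 0.05 or separate groups and a difference of at least 0.25, other than Adamts3, and for Timp1; symbols number the hearts and lines are group means. WT heart 2 (squares) is the highest WT heart for Adamts15, Lox, Timp1, Timp4, Mmp28 and Adamts8, and the lowest for Adamts1 and Mmp12.

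A list of 78 genes that act with these enzymes, as substrates, activators, maturation factors or regulators, was read in the same fit, and 74 had a probe set of their own. By the limma test 2 rose and 0 fell (2.70%, against 1.09% of all tested probe sets), and the median difference was 0.06. At an unadjusted limma p under 0.05 there were 8, or 10.8% against 12.9% of all probe sets. The genotypes did not overlap in 14, or 18.9% against 19.8%. The list was drawn up with earlier results of these data known. Thbs1, thrombospondin 1, a matricellular protein that activates latent TGF beta, read 9.44, 9.24 and 9.81 in Ppif-/- hearts and 7.34, 7.40 and 7.37 in WT hearts. That is 4.37-fold higher (2.13 ± 0.13, limma adjusted p = 0.000425), and the lowest knockout heart lay far above the highest WT heart. Pcolce2, an enhancer of procollagen C-proteinase, stood at 9.01, 8.97 and 9.02 against 8.49, 8.55 and 8.66 (0.43 ± 0.07, limma adjusted p = 0.0356). The Pcolce2 call was lost without any 1 of the 6 hearts (0.0623 to 0.137).

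Next by p were Tgfb1 (0.30 ± 0.07, limma adjusted p = 0.128) and Pcsk6, a furin-like convertase (-0.47 ± 0.11, 0.13), neither of which passed. The fibrillar collagens, on which ADAMTS3-type proteinases and lysyl oxidases act, differed by 0.05 to 0.38 in 5 of 5 genes, and 0 passed in limma (0 at an unadjusted p under 0.05). Col1a1 was at 0.21 ± 0.11, Col1a2 at 0.27 ± 0.13 and Col3a1 at 0.38 ± 0.21, and in each WT heart 2 had the lowest value. Without that heart they were at 0.09, 0.13 and 0.10, and Col5a1 and Col5a2 at 0.03 and -0.02. The substrates of ADAMTS1 read close to level, with versican (Vcan) at -0.14 ± 0.14 and aggrecan (Acan) at 0.0036 ± 0.07. Ccbe1 and Vegfc, cofactor and substrate of ADAMTS3, were at 0.12 ± 0.08 and 0.10 ± 0.12. The procollagen C-proteinase Bmp1 was at -0.02 ± 0.07.

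**Figure D4:**
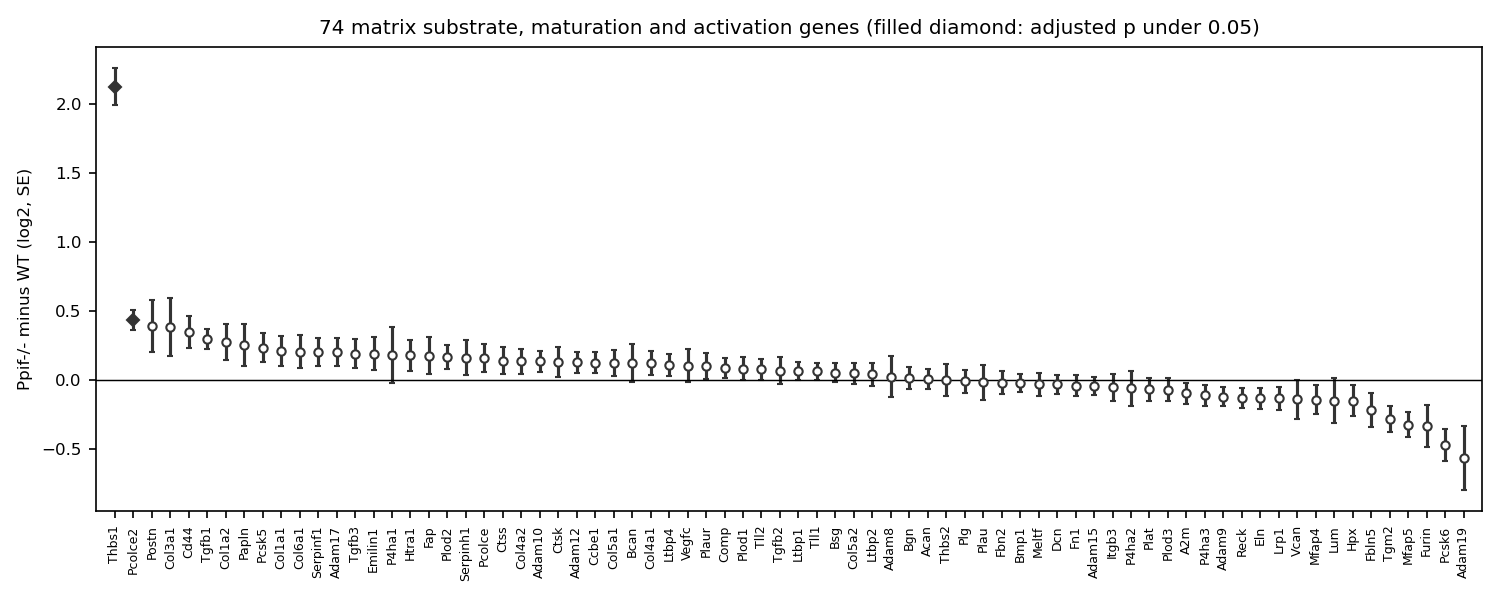
Difference in log2 expression between 3 Ppif-/- and 3 WT hearts (vertical axis) for 74 genes of matrix substrates, maturation and activation, ordered by size; bars are the SE of the fit and filled diamonds mark an adjusted p under 0.05. Thbs1 at 2.13 stands far above the others, followed by Pcolce2 at 0.43, and the remaining genes lie between -0.57 and 0.39.

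Markers of the cell types that make these proteins were read in the same fit. Of all tested probe sets, 1.09% were called and 12.9% had an unadjusted limma p under 0.05. Of 10 fibroblast markers 1 fell, Pdgfra (-0.44, limma adjusted p = 0.0246), and the mean log2 level over the list was 9.35 to 9.53 in Ppif-/- and 9.46 to 9.56 in WT hearts. Of 8 smooth muscle and pericyte markers 1 fell, Tagln (-0.51, 0.0332), with list means of 8.84 to 8.93 against 9.05 to 9.18. At an unadjusted p under 0.05 that list held 3 lower markers, Tagln, Myh11 (-0.53) and Cnn1 (-0.48), and 1 higher, the pericyte marker Rgs5 (0.27), whose groups were also separate. Of 8 macrophage markers 1 rose, Cd68 (0.56, 0.0394), with list means of 8.02 to 8.21 against 7.91 to 7.93. By the unadjusted p the fibroblast list held 3 lower and 0 higher markers, and the macrophage list 2 higher and 0 lower. Neither list moved as one. The fibroblast median difference was -0.11, yet Postn (0.39) and Col1a1 (0.21) were higher on average, with overlapping hearts. The macrophage median was 0.14, yet Csf1r was lower with separate groups (-0.10). In the glial list, of which 4 of 6 markers were measured, Cdh19 fell (-0.73, 0.0107). Endothelial, neutrophil, mast cell, mesothelial and adipocyte lists held 0 called markers in limma, with 1, 2, 2, 3 and 0 at an unadjusted p under 0.05. The neutrophil list means were 4.91 to 5.12 in Ppif-/- and 5.03 to 5.30 in WT hearts. The part of these shifts in the values of the member genes was not tested.

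Genes lying beside the members were read as well. Over all tested probe sets the shares were 1.09% called in limma and 12.9% at an unadjusted p under 0.05. The 20 measured genes nearest to Adamts3 in gene order, 10 on each side, held 0 calls in limma and 3 at an unadjusted p under 0.05, and their differences ran from -0.46 to 0.19. Around Adamts1 it was 0 of 20 calls and 2 at that p (-0.37 to 0.24), Adamts5 among them. Around Adamts15 it was again 0 of 20 and 2 (-0.29 to 0.23), Adamts8 among them.

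For each of the 5 called Adamts3 probe sets, the 5 genes with the closest pattern over the 6 hearts were listed by Pearson's r. These 25 entries named 22 genes, with r from 0.987 to 0.996. All 22 were higher in Ppif-/- hearts and 7 of them passed in limma, against 1.09% of all tested probe sets. Choosing genes by r with probe sets that rose favours genes that rose, so neither count is a separate result. Named more than once were Mrpl55 (0.83), Tor1aip2 (0.19) and Ccdc141 (0.38). Among the genes that passed, the list for 10531173 also held Egr1 (2.48), Acp1 (0.68) and Tlcd4 (0.58). That for 10531197 held Sh2d4a (1.22), Manba (1.04) and Timm17a (0.58). Over so few hearts from 2 groups, r mostly reflects the genotype difference, and it is given as a description.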

How the data were processed

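Total RNA of each heart was labelled as sense-strand cDNA, per the labels' protocols. The values the authors deposited are on the log2 scale, 1 per probe set, made with RMA per the submitters' processing notes (version, filters and build not given in the sources used here), and were used as deposited (1.91 to 14.63). Gene names came from GEO's platform table. Of 35557 probe sets, 21789 carried 1 symbol, 1621 several and 12147 none, and the 53 member symbols matched a GRCm38.p6 gene table. The 23410 with a symbol were fitted with limma 3.58.1 in R 4.3.3 (lmFit, eBayes, 2-sided, no covariates), with Benjamini-Hochberg adjustment at 0.05. With 3 hearts a genotype, exact permutation reaches no p below 0.1, so only moderated tests are given.

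The members, the partner and marker lists and the naming rule were chosen with earlier results of these data known. The rule took all Adamts3 probe sets, members called or with an unadjusted p under 0.05, members with separate groups and a difference of at least 0.25, and the called partners or the 4 smallest by p. Mean values over probe sets, neighbouring genes, and members, partners and markers outside the rule were described after their values were seen, as were motif letters. Lists are described by counts and medians. On simulated arrays of this comparison (23410 probe sets, 200 changed), 54% of changes of log2 size 0.5, 82% of size 1, 98% of size 2 and 100% of size 3 were recovered, with 5.11% false calls among the calls and 0 calls when nothing was changed. The simulated noise was normal and independent between probe sets, with the same SD in both genotypes. Hearts that deviate in many genes at once were therefore not simulated. No batch information or detection calls were given, and the number of arrays limits precision. Alternatives were the replicate number as a block, another choice of probe sets to test or to stand for a gene, a filter on low values, quantile normalisation, centring, other variance models, array weights and leaving out each heart.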

Additional observations from a re-analysis of the deposited data

How the results depend on the processing

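The count of called members was 2 as reported, 1 with the replicate number as a block (Adamts1), 0 with all 35557 probe sets tested, and 0 to 2 when 1 heart was left out: 1 without Ppif-/- heart 1 (Adamts1), 0 without Ppif-/- heart 2 or 3, 2 without WT heart 1 (Adamts3 and Mmp28), and 1 without WT heart 2 or 3 (Adamts1). It was 2 under the 8 other planned settings, and with the probe set of largest spread per gene Adamts3 was read by 10531187. All 16 Adamts3 differences stayed above 0 wherever tested, and 10531187 and 10531173 were called in every setting that tested them (adjusted p = 0.00183 to 0.0328 and 0.00564 to 0.0457). With all probe sets tested, Adamts1 had an adjusted p of 0.0693 and 10531177 of 0.081, and with the block 0.0126 and 0.0668. The count over all probe sets was 254, and 160 with the block, 405 on brighter probe sets, 131 with all probe sets, 453 with a variance trend, 386 with array weights and 131 to 171 without 1 heart. Partner calls fell from 2 to 1 (Thbs1) with the block, with all probe sets, and without each heart (1 in each). The members' median of -0.0047 was 0.0209 with array weights and -0.0359 to 0.0179 without 1 heart. The cause of these shifts was not tested. The deviations of same-numbered hearts had correlations of -0.08, -0.06 and 0.12, within the range of differently numbered hearts (-0.13 to 0.16). So few values cannot exclude a pairing by number. Of 453 repeats over named genes and probe sets, 413 kept their side of the threshold, 35 lost and 5 gained a call, and 0 changed sign.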
